A study of Homo sapiens with 54 samples.

Results

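The 10 genes described here are negative feedback genes and transcriptional readouts of the ERK (MAPK) pathway: the phosphatases *DUSP4*, *DUSP5* and *DUSP6*, the Sprouty genes *SPRY2* and *SPRY4*, the Sprouty-related genes *SPRED1* and *SPRED2*, the ETS factors *ETV4* and *ETV5*, and *PHLDA1*. They were listed by name, with earlier results of these data known, and all 10 had a row in each of the 4 tables of gene-level TPM, a length-corrected share of the transcripts in a library, which hold 55906 gene rows each. The study compared loss of the splicing factor *TRA2A*, of its paralog *TRA2B*, or of both, in cancer lines that do or do not depend on *TRA2A*. RNA was sequenced from 54 libraries in 18 groups of 3 replicates. A549 (*TRA2A*-independent) and NCI-H23 (*TRA2A*-dependent), both lung cancer lines, expressed the CRISPRi repressor Zim3-dCas9, were sorted as pools and were collected at day 5 after control (Control KD), single (TRA2A KD, TRA2B KD) or double knockdown (TRA2A/B DKD), in 12 libraries per line. LN229 (independent) and LN319 (dependent), both glioma lines, expressed Cas9 and were collected at day 7, in 15 libraries per line. Cells with a luciferase transgene (Luc) received guides to either paralog or control guides, and cells with a *TRA2B* transgene (TRA2B-OE) received control guides or guides to *TRA2A*. All controls received guides to control loci, so they share Cas9 or dCas9, the guide vector and drug selection with the perturbed cells.

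ERK signaling runs from growth factor receptors through RAS, RAF and MEK to ERK, which phosphorylates transcription factors and thereby switches on a fast set of target genes. Several targets switch the pathway off again: the nuclear phosphatases DUSP4 and DUSP5 and the cytoplasmic DUSP6 dephosphorylate MAP kinases, Sprouty and SPRED proteins restrain RAS and RAF activation, and SPRED1 does so by bringing the RAS inactivator NF1 to the membrane. ETV4 and ETV5 are PEA3-family ETS factors kept silent by the repressor CIC until ERK inactivates it, and PHLDA1 is a pleckstrin homology-like protein induced by growth factors. The mRNA of these genes is often used to read out ERK output in tumor cells.

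The promoter of *DUSP6* is shown because, of the promoters at hand, it alone held the octamer TNAATGNA, of the kind bound by CIC, and that of *SPRY2* is shown for contrast. RefSeq (GRCh38.p14) windows from 250 bases before to 50 after a start matched 6 of the 10 genes (*DUSP6*, *SPRY2*, *SPRY4*, *SPRED1*, *SPRED2* and *PHLDA1*), in 9 windows. Both printed stretches lie directly upstream of the gene on the minus strand and are written 5′ to 3′. That of *DUSP6* (259 bases, chr12:89352493-89352751) runs 9 bases into the first exon, and that of *SPRY2* (250 bases, chr13:80341127-80341376) ends at the base before the start. Capitals mark the octamer in *DUSP6*, read on the opposite strand, and TGACG, a part of the cyclic AMP response element, in *SPRY2*.
*DUSP6*: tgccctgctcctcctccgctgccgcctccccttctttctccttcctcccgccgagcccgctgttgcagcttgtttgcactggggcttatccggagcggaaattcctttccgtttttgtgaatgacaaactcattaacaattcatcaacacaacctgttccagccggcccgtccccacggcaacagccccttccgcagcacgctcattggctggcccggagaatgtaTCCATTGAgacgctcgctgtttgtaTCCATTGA
*SPRY2*: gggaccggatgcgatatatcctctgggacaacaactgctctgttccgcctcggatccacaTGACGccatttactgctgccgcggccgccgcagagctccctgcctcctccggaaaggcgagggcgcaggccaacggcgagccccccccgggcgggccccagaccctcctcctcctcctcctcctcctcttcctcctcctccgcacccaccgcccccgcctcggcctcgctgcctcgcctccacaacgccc
The octamers of *DUSP6* start 24 bases before and 2 bases after the start as printed. On either strand, 11.1% of all 35116 windows held TNAATGNA at least once and 1.66% held it 2 or more times. TGACG was in 24.6% of windows and also occurred once in *SPRY4* and once in *SPRED2*. The AP-1 letters TGANTCA (7.71% of windows) occurred 2 times in a second *SPRED2* promoter, and the ETS letters CCGGAAG (10.3%) in none of the 9.

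The targeted genes fell in the lung lines, where the repressed mRNA was at 6.54% to 10.6% of its control mean in the single knockdowns and at 13.9% to 25.2% in the double ones. Cas9 cutting alters the coding sequence and need not remove the mRNA: *TRA2A* was at 62.9% of control in LN229 TRA2A KO and 33.2% in LN319 TRA2A KO, and *TRA2B* at 66% and 35.1% in the *TRA2B* knockouts. The paralog not targeted moved as well. In TRA2B KO *TRA2A* was at 155% of control in LN229 and 84.6% in LN319. In TRA2A KO *TRA2B* was at 113% in LN229 and 119% in LN319. In the TRA2B-OE cells *TRA2A* KO left *TRA2A* at 87.2% of the TRA2B-OE control in LN229, where the groups overlapped, and at 52.8% in LN319. Those controls already held *TRA2A* at 73.4% of the Luc control in LN229 and 85.2% in LN319. In LN229 the *TRA2A* knockouts averaged 69.9 TPM of *TRA2A* in TRA2B-OE cells and 68.8 TPM in Luc cells. The library labelled A549 Control KD replicate 3 stood apart, with a median correlation to the other A549 libraries of 0.837 against 0.872 to 0.927 for the rest. LN229 Luc Control KO replicate 1 correlated best with a Luc TRA2B KO library (r = 0.960). Its median correlation to the other LN229 libraries was 0.941, beside 0.940 for Luc Control KO replicate 3. The main results that rest on the named A549 or LN229 library are given with and without it. Of the epithelial markers *KRT8* and *KRT18* were high in both lung lines, but the alveolar markers *SFTPB* and *SFTPC* were near 0. At least 1 TPM in 4 or more libraries was reached by 6 of 6 epithelial markers in A549 and 5 of 6 in NCI-H23. Of 4 alveolar or adenocarcinoma markers 1 reached it in A549, 0 in NCI-H23 and LN229 and 2 in LN319. In the controls the epithelial list summed to 9074 to 9294 TPM in A549 and 1910 to 1976 in NCI-H23. The 3 mesenchymal markers summed to 1298 to 1601 TPM and 1595 to 1625 TPM there. *GFAP* averaged only 2.84 TPM in LN229 and 2.13 TPM in LN319, beside *SOX2* at 81.9 and 402 TPM, and *CDH1*, an epithelial cadherin, averaged 123 TPM in LN319. Markers of blood and endothelial cells averaged below 1 TPM in every control. The labels number the replicates without naming separate cultures, so p-values measure the spread between libraries, which may be technical. TPM keeps no record of depth.

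In the control libraries the 10 genes differed widely between lines, and A549, the *TRA2A*-independent lung line, was lowest for 5 of them. TPM corrects for transcript length, but each line has its own table, so levels of different lines are set side by side without a test. Mitochondrial transcripts took 18.0% to 21.6% of TPM in the A549 controls and 23.1% to 31.9% in NCI-H23. In the Luc controls they took 6.11% to 7.97% in LN229 and 12.1% to 12.8% in LN319. The levels were not adjusted for this share, and its part in them was not tested. Lung controls carried Zim3-dCas9 at day 5 and glioma controls Cas9 and luciferase at day 7. Lung and glioma levels therefore cannot be told apart from system, transgene and day. *DUSP6* (chr12:89347235-89352501) had the widest range. It averaged 3.96 ± 2.29 TPM (SD, n = 3) in A549 controls, 39.6 ± 4.73 in NCI-H23, 46.1 ± 2.28 in LN319 and 98.2 ± 26.3 in LN229, 24.8-fold above A549. Only the NCI-H23 and LN319 libraries overlapped. The other phosphatases ran the other way, with A549 highest by the mean of all 3 controls. *DUSP4* (chr8:29333064-29350684) averaged 81.8 ± 29.7 TPM in A549, overlapping LN319 (72.7 ± 7.81), followed by LN229 (51.3 ± 5.72) and NCI-H23 (24.8 ± 1.65). Without Control KD replicate 3 the A549 mean of *DUSP4* was 64.7 TPM, below that of LN319. *DUSP5* (chr10:110497907-110511533) averaged 19.2 ± 1.21 TPM in A549, 16.4 ± 0.499 in LN319, 13.5 ± 1.59 in LN229 and 8.21 ± 0.445 in NCI-H23, with no overlap between neighbours.

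Both Sprouty genes were lowest in A549. The glioma lines were highest for *SPRY2*, while for *SPRY4* LN229 was highest and LN319 lay below NCI-H23. *SPRY2* (chr13:80335976-80341126) averaged 113 ± 8.52 TPM in LN319, 100.5 ± 8.06 in LN229, 17.3 ± 1.08 in NCI-H23 and 7.36 ± 1.83 in A549. *SPRY4* (chr5:142310427-142326455) averaged 82.5 ± 43.7 TPM in LN229, 36.4 ± 1.86 in NCI-H23, 16.0 ± 2.17 in LN319 and 5.34 ± 2.88 in A549, with no overlap in either gene. *SPRED1* (chr15:38252836-38357249) stood at 35.1 ± 2.80 TPM in LN229, while A549 (10.1 ± 6.40), LN319 (7.25 ± 0.165) and NCI-H23 (6.98 ± 0.348) overlapped along that order. Without Control KD replicate 3 the A549 mean of *SPRED1* was 6.39 TPM, the lowest of the lines. *SPRED2* (chr2:65310851-65432637) was the most even, from 22.9 ± 0.447 TPM in NCI-H23 and 25.9 ± 1.99 in A549 to 32.1 ± 0.939 in LN319 and 50.1 ± 6.19 in LN229. *ETV4* (chr17:43527844-43579620) was highest in NCI-H23 at 77.3 ± 0.635 TPM, with LN319 (51.4 ± 5.35) and LN229 (42.2 ± 4.83) overlapping and A549 lowest at 30.8 ± 6.30. *ETV5* (chr3:186046314-186110318) was highest in LN229 at 72.4 ± 8.05 TPM, A549 (22.4 ± 3.83) and NCI-H23 (21.6 ± 2.73) overlapped, and LN319 had 9.18 ± 0.378. *PHLDA1* (chr12:76025447-76031776) averaged 151 ± 21.7 TPM in LN229, 59.5 ± 1.88 in NCI-H23, 54.9 ± 1.22 in LN319 and 22.3 ± 2.26 in A549. The genes therefore did not share 1 order across the lines: LN229 led for 6, A549 for 2, and LN319 and NCI-H23 for 1 each. The lead of A549 in *DUSP4* rested on Control KD replicate 3.

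**Figure D1:**
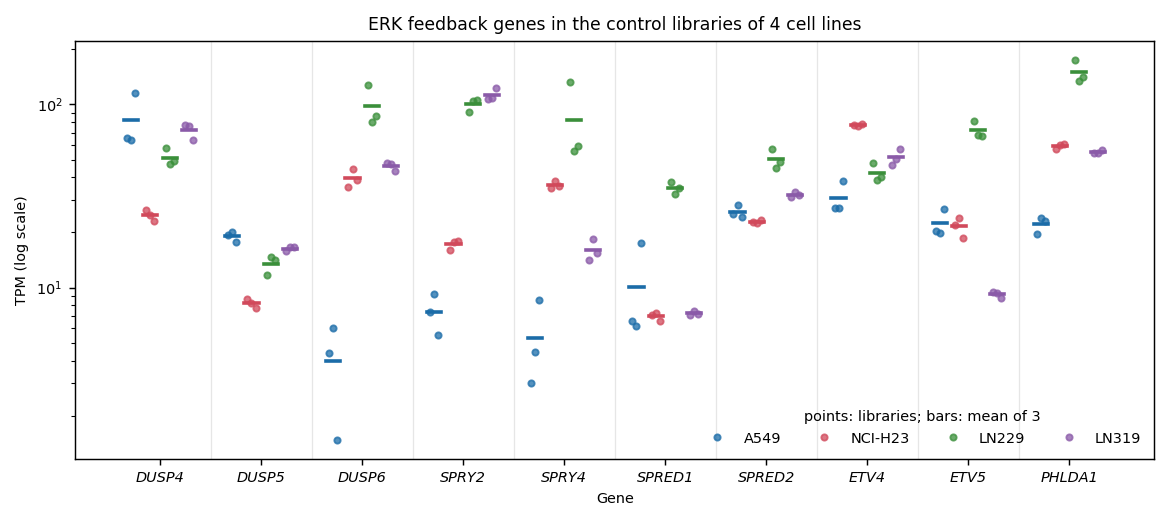
TPM on a log axis for the 10 genes in the control libraries of A549, NCI-H23, LN229 and LN319, with a point per library and a bar at the mean of 3. *DUSP6*, *SPRY2* and *SPRY4* spread most between lines. The bars of *DUSP4* and *DUSP5* are highest in A549, that of *DUSP4* only with Control KD replicate 3 included.

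Each perturbation was then set against its own control. Fold changes are on the scale of log2(TPM + 0.1) after scaling between libraries, fitted with limma in 1 model per line, so a small one can differ in sign from the ratio of the TPM values printed. A gene was called at an adjusted p under 0.05, with Benjamini-Hochberg correction across every gene kept in that line, and all 10 genes passed the filter on low values in every line.

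**Figure D2:**
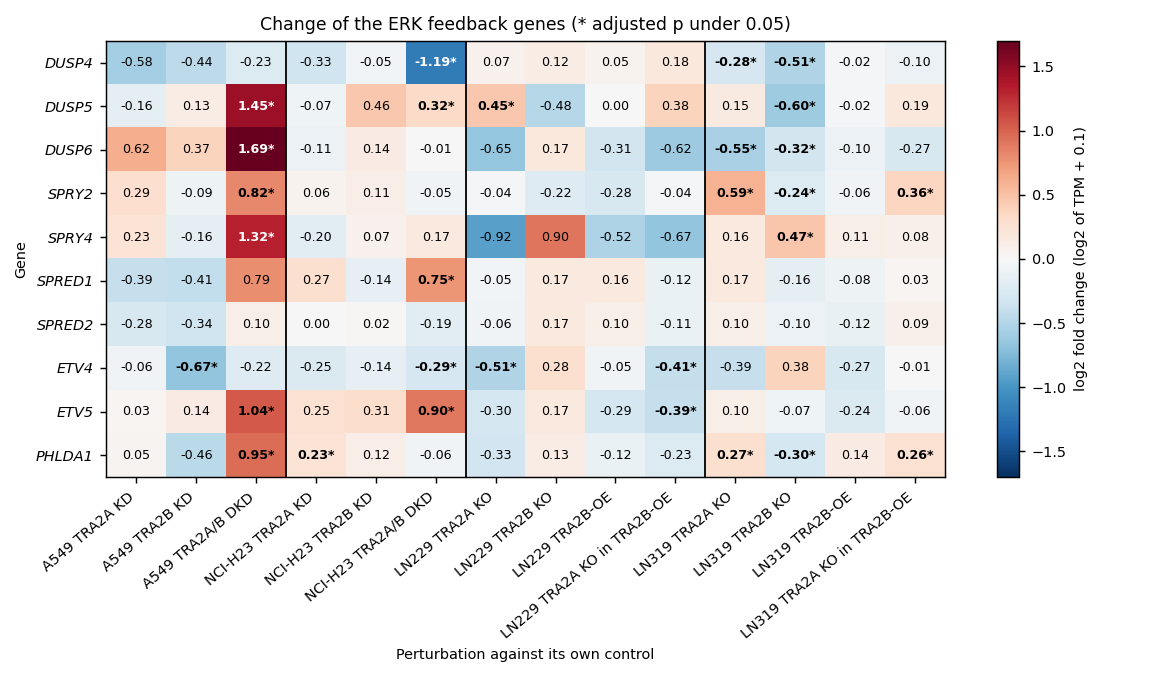
Log2 fold change (color and number) of the 10 genes, in rows, in the 14 comparisons of a perturbation with its own control, in columns grouped by cell line, with an asterisk where the adjusted p was under 0.05. The strongest increases are in A549 TRA2A/B DKD, where *DUSP6* stands at 1.69, and the strongest decrease is *DUSP4* in NCI-H23 TRA2A/B DKD, at -1.19.

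In A549 the single knockdowns called 1 of the 20 values. TRA2A KD called none of the genes by limma, against a background of 0.207% of all genes called. At an unadjusted p under 0.05, a looser threshold for which that background does not hold, there was 1. Libraries did separate for 4 genes: *DUSP4*, *DUSP5*, *SPRED2* and *ETV4* were each lower in every TRA2A KD library than in every control, where 14.5% of all genes had groups that did not overlap. Overlap was read in TPM as deposited, in which the median of all genes lay at -0.12 on the log2 scale in this comparison, and after scaling *ETV4* stood at -0.06 (adjusted p = 0.798) and *DUSP5* at -0.16 (adjusted p = 0.589). *DUSP4* was at 65.8, 63.6 and 116 TPM in the controls and 46.8, 45.5 and 49.7 in TRA2A KD, a log2 fold change of -0.58 ± 0.15 (SE) with an adjusted p of 0.198, and of -0.40 (adjusted p = 0.142) without Control KD replicate 3. TRA2B KD called *ETV4* (background 0.341%). *ETV4* was at 27.2, 27.1 and 38.1 TPM in the controls and 18.0, 15.9 and 20.1 in TRA2B KD, lower in all 3, with a log2 fold change of -0.67 ± 0.11 and an adjusted p of 0.0322. The call was lost without Control KD replicate 1 (adjusted p = 0.0769) or TRA2B KD replicate 1 (0.162) or 2 (0.165). *DUSP4*, *SPRED2* and *PHLDA1* were also lower in every TRA2B KD library without being called (20% of all genes did not overlap), at log2 fold changes of -0.44, -0.34 and -0.46. Without Control KD replicate 3, *PHLDA1* was called as well, at -0.52 with an adjusted p of 0.0259, *ETV4* stood at -0.60 (adjusted p = 0.0384), and *DUSP4* (-0.26) and *SPRED2* (-0.48) were not called.

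Loss of both paralogs raised 6 of the 10 genes in A549, and no gene fell by the test. The background was high, since 30.6% of all genes were called in either direction and 14.3% rose. *DUSP5* was at 19.5, 20.2 and 17.8 TPM in the controls and 50.9, 56.4 and 59.8 in TRA2A/B DKD, a log2 fold change of 1.45 ± 0.13 (adjusted p = 1.96e-05). *DUSP6* was at 4.40, 6.0 and 1.48 TPM in the controls and 11.4, 13.6 and 10.8 in the double knockdown, 1.69 ± 0.46 on the log2 scale (adjusted p = 0.0181). All double knockdown libraries lay above all controls for both phosphatases, while *DUSP4* overlapped its controls (75.1, 71.1 and 66.5 TPM, log2 fold change -0.23).

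The A549 inhibitors of RAS and RAF divided in the same comparison. *SPRY4* was at 3.02, 4.43 and 8.57 TPM in the controls and 15.9, 11.5 and 11.9 in TRA2A/B DKD, 1.32 ± 0.29 on the log2 scale (adjusted p = 0.00569). *SPRY2* was at 7.40, 9.18 and 5.52 TPM and at 13.5, 11.9 and 15.4, 0.82 ± 0.22 on the log2 scale (adjusted p = 0.0161). Both Sprouty genes were higher in all 3 double knockdown libraries. *SPRED1* was at 6.6, 6.19 and 17.5 TPM in the controls and 17.9, 16.4 and 15 in the double knockdown, so the 1 high control overlapped, and its log2 fold change of 0.79 ± 0.35 was not called (adjusted p = 0.109). *SPRED2* had a log2 fold change of 0.10.

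The A549 transcription factors divided as well. *ETV5* was at 20.4, 20.0 and 26.8 TPM in the controls and 47.6, 50.0 and 47.5 in TRA2A/B DKD, 1.04 ± 0.12 on the log2 scale (adjusted p = 8.1e-05). Its paralog *ETV4* overlapped the controls at 26.2, 27.2 and 29.4 TPM, with a log2 fold change of -0.22. *PHLDA1* was at 19.7, 24.0 and 23.2 TPM in the controls and 45.4, 45.1 and 45.7 in the double knockdown, 0.95 ± 0.09 on the log2 scale (adjusted p = 3.86e-05). Without Control KD replicate 3 the count was 7, all higher, against a background of 37.8%: *SPRED1* joined at 1.17 (adjusted p = 0.00947), *DUSP6* dropped to 1.02, *SPRY2* to 0.54, and *SPRY4* stood at 1.62. The call of *DUSP6* was lost without TRA2A/B DKD replicate 2 (1.58, adjusted p = 0.0621) and that of *SPRY2* without replicate 3 (0.74, adjusted p = 0.0644). Both calls were also lost in a fit limited to the control and double knockdown libraries (adjusted p = 0.0859 and 0.0901), which left 4 of the 10 genes called. The 6 genes were called higher under each scaling tried, and the 6 rises were among 41.5% of all genes whose groups did not overlap.

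Whether the double knockdown exceeded the sum of the single ones was tested as an interaction. The test takes each target to be equally depleted in the single and double knockdowns. In A549 *TRA2A* averaged 7.18 TPM in its single and 10.4 in the double knockdown, and *TRA2B* 13.3 and 22.4. Neither target was called in the A549 test (-0.10 and 0.17). The A549 double knockdown exceeded the sum for 6 genes, where 14.7% of all genes were called and 5.84% in this direction. The excess on the log2 scale was 1.48 ± 0.18 for *DUSP5* (adjusted p = 0.000548), 1.35 ± 0.13 for *PHLDA1* (0.000168) and 0.87 ± 0.16 for *ETV5* (0.00665). It was 0.80 ± 0.21 for *DUSP4* (0.0273), 0.71 ± 0.20 for *SPRED2* (0.0411) and 0.51 ± 0.15 for *ETV4* (0.0471). Of these 3 genes only *ETV4* was called in a single knockdown, TRA2B KD, and none was called in the double one. *SPRY4* (1.24, adjusted p = 0.0639), *SPRED1* (1.60, adjusted p = 0.0516), *DUSP6* (0.70, adjusted p = 0.51) and *SPRY2* (0.62, adjusted p = 0.208) were not called. The last 3 calls were fragile: leaving out 1 of the 12 libraries lost *DUSP4* for 6 of them (adjusted p up to 0.0692), *SPRED2* for 10 (up to 0.0973) and *ETV4* for 9 (up to 0.113). TPM as deposited shifted the median of all genes by 0.256 in this test, gave 72.7% of calls among all genes as higher, and called 9 of the 10 genes. Without Control KD replicate 3 the count was also 9, against a background of 21.9%, with *DUSP6* at 1.36 (adjusted p = 0.0141), *SPRY2* at 0.90 (0.00716) and *SPRED1* at 1.21 (0.0499).

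The rest of the pathway was read from lists written with earlier results of these data known, against the same backgrounds of 14.3% of all genes higher and 16.3% lower. Of 10 other ERK output genes, 5 rose and 1 fell in A549 TRA2A/B DKD, with a median log2 fold change of 0.55 beside 0.03 over all genes. The immediate early factor *EGR1* went from 0.474, 0.804 and 0.491 TPM to 176, 183 and 193, a log2 fold change of 8.0. The EGFR ligand *HBEGF* rose by 2.12 on the log2 scale and the AP-1 subunit *FOSL1* by 1.28, while the cytokine *LIF* fell by 0.51. Of 11 measured family relatives 6 rose, led by *DUSP8* (2.11), *DUSP10* (1.78) and *DUSP1* (1.64), which act mainly or also on the stress kinases JNK and p38, and none fell. Of 31 genes of the cascade from receptor to ERK, 3 rose (*BRAF* 1.09, *SHOC2* 0.85, *CIC* 0.57) and 8 fell (the receptors *ERBB2*, -1.09, and *FGFR1*, -0.77, and *NRAS*, -0.64, leading). That is 11 of 31 beside 30.6% of all genes. In the same libraries 3 p53 targets rose (*GDF15* 2.32, *MDM2* 2.16, *CDKN1A* 1.89) and 5 proliferation genes fell (*MKI67* -2.15, *TOP2A* -1.64, *CDK1* -1.40 leading). That list was chosen on these samples and its part in the result was not tested. Of 6 epithelial markers 1 rose and 4 fell, and their summed level was 7803 to 7906 TPM in the double knockdown and 9074 to 9294 in the controls. Of 3 mesenchymal markers 2 fell, and their summed level was 1054 to 1151 TPM beside 1298 to 1601. The part of these markers in the result was not tested.

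**Figure D3:**
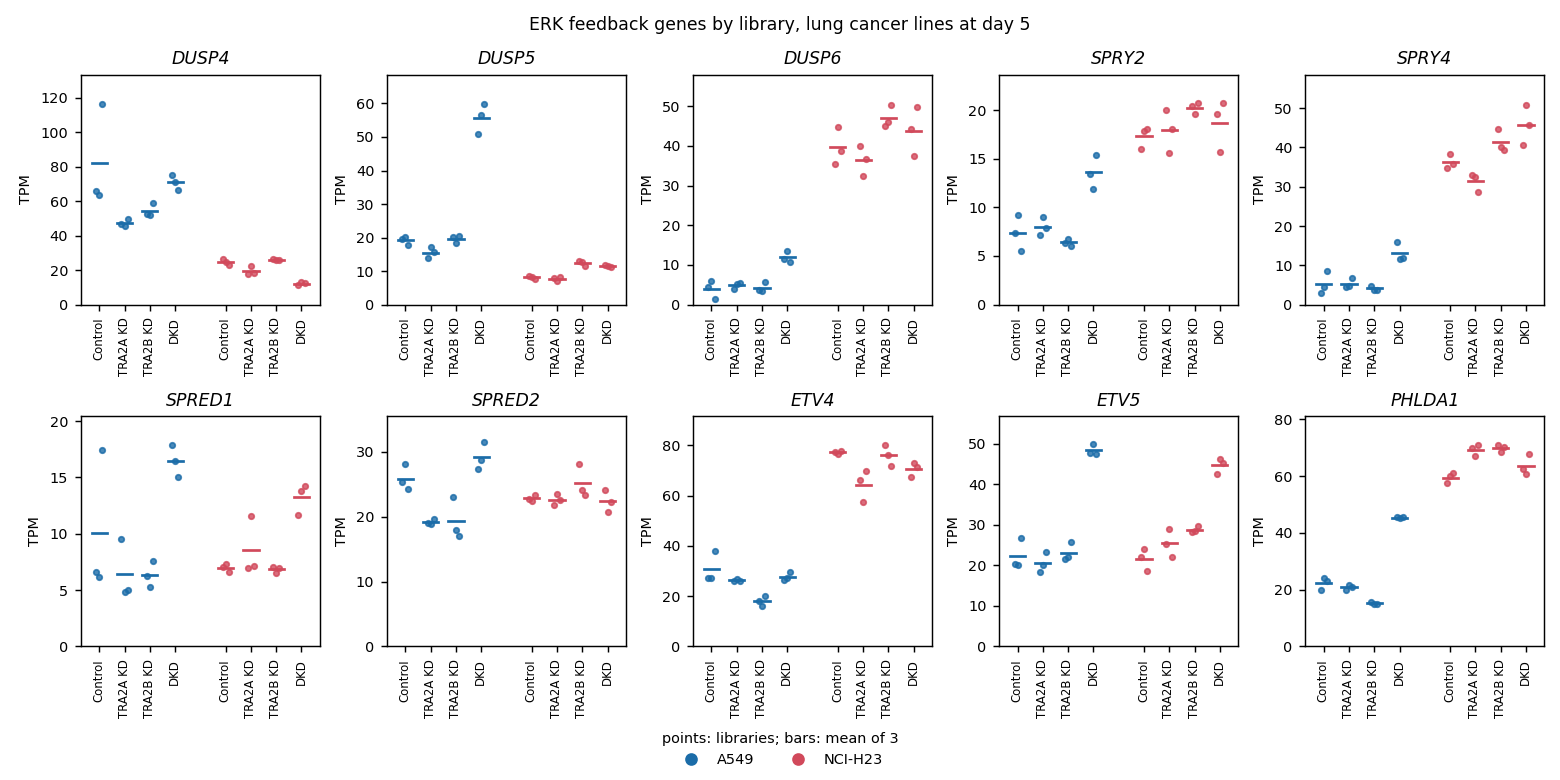
TPM of the 10 genes by library in A549 and NCI-H23, 1 panel per gene, with a point per library, a bar at the mean of 3 and the control, TRA2A KD, TRA2B KD and double knockdown (DKD) groups along the axis. In A549 *DUSP5*, *DUSP6*, *SPRY2*, *SPRY4*, *ETV5* and *PHLDA1* are higher in all 3 double knockdown libraries than in any control, and A549 Control KD replicate 3 is the high *DUSP4* and *SPRED1* point.

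In NCI-H23, the *TRA2A*-dependent lung line, the single knockdowns moved the genes little. TRA2A KD called *PHLDA1* (background 0.976%), at 57.4, 59.96 and 61.1 TPM in the controls and 69.8, 67.0 and 70.8 in the knockdown. All 3 were higher, with a log2 fold change of 0.23 ± 0.05 and an adjusted p of 0.042, and the call was lost when any 1 of the 6 libraries was left out (adjusted p = 0.0561 to 0.125). *DUSP4* (-0.33), *ETV4* (-0.25) and *SPRY4* (-0.20) were lower in every TRA2A KD library without being called, where 15% of all genes did not overlap. TRA2B KD called none by limma (background 0.196% called). At an unadjusted p under 0.05, a looser threshold for which that background does not hold, there were 3. In TPM as deposited 6 genes were higher in all 3 libraries, where 24.6% of all genes did not overlap. In that unscaled TPM the median of all genes lay at 0.12 on the log2 scale and 93.8% of calls were higher. Mitochondrial transcripts took 17.8% to 19.3% of TPM in TRA2B KD and 23.1% to 31.9% in the controls, and their part in the result was not tested. After scaling *SPRY4*, 1 of the 6, stood at 0.07. Of these *DUSP5* had the largest log2 fold change, 0.46 ± 0.10 (adjusted p = 0.163, and 0.035 in TPM as deposited). It was at 8.62, 8.28 and 7.74 TPM in the controls and 12.9, 12.6 and 11.4 in TRA2B KD.

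The double knockdown changed 5 of the 10 genes in NCI-H23, 3 higher and 2 lower, against a background of 43.2% of all genes, 20% higher and 23.2% lower. *DUSP4* was at 26.5, 24.8 and 23.2 TPM in the controls and 11.2, 12.9 and 12.2 in TRA2A/B DKD, a log2 fold change of -1.19 ± 0.12 (adjusted p = 1.68e-05). *ETV5* was at 22.0, 24.1 and 18.7 TPM and rose to 42.6, 46.2 and 45.3, 0.90 ± 0.12 on the log2 scale (adjusted p = 0.000148). *SPRED1* was at 7.06, 7.29 and 6.6 TPM and rose to 11.6, 13.8 and 14.2, 0.75 ± 0.18 on the log2 scale (adjusted p = 0.00661). The groups did not overlap for these 3 genes, as for 52.1% of all genes, and the 3 calls held without any 1 library.

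The remaining NCI-H23 calls were small. *DUSP5* rose from 8.62, 8.28 and 7.74 TPM to 11.8, 11.5 and 11.2 (log2 fold change 0.32 ± 0.10, adjusted p = 0.0249), a call lost without any of 4 of the 6 libraries (adjusted p up to 0.0856). *ETV4* was at 77.3, 76.6 and 77.8 TPM in the controls and 67.4, 73.1 and 71.4 in the double knockdown (-0.29 ± 0.08, adjusted p = 0.0131), and was not called in TPM as deposited (-0.13, adjusted p = 0.193) or after quantile normalization (-0.15, adjusted p = 0.148), nor without TRA2A/B DKD replicate 3 (-0.26, adjusted p = 0.0515). TPM as deposited, in which the median of all genes shifted by 0.168 and 63.0% of calls were higher, gave 4 higher and 1 lower, with *SPRY4* called at 0.32 (adjusted p = 0.0184) in place of *ETV4*. *DUSP6*, *SPRY2* and *PHLDA1* stayed within 0.06 of 0 on the log2 scale and changed sign with the scaling. *DUSP6* and *SPRY4*, which rose in the A549 double knockdown, were thus at 44.3, 37.4 and 49.7 TPM and at 40.6, 50.9 and 45.8 TPM in NCI-H23, beside controls of 35.3, 44.7 and 38.8 and of 34.8, 38.4 and 35.9. The difference between the lines was not tested.

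The interaction in NCI-H23 went down where it was called, for 2 genes (background 21% of all genes, 12.8% in this direction). *DUSP4* in the double knockdown lay 0.81 ± 0.17 below the sum of the single effects on the log2 scale (adjusted p = 0.006), and *PHLDA1* 0.41 ± 0.06 below (adjusted p = 0.00143). *PHLDA1* was at 67.0 to 70.8 TPM in the single knockdowns and at 62.4, 60.6 and 67.9 TPM in the double one. The targets themselves were called above the sum by the same test, *TRA2A* at 1.00 (adjusted p = 7.37e-05) and *TRA2B* at 0.63 (adjusted p = 0.00988). *TRA2A* averaged 6.84 TPM in its single and 21.5 in the double knockdown, and *TRA2B* 9.75 and 23.3. The NCI-H23 interactions therefore cannot be told apart from this weaker depletion. In the double knockdown itself 20% of all genes rose and 23.2% fell. Of the 10 other ERK output genes 1 rose there (*EGR1*, 0.95) and 2 fell (*FOSL1*, -0.35, and *MYC*, -0.28), with a median of -0.08. Of 12 measured relatives 3 rose (*PHLDA3* 1.5, *DUSP2* 1.02, *DUSP1* 0.97) and 4 fell (*PHLDA2* -0.97, *DUSP9* -0.92 and *SPRY1* -0.72 leading). In the cascade 4 of 31 rose (*SHOC2* 0.85, *BRAF* 0.48 and *SOS2* 0.36 leading) and 11 fell (*MET* -1.32, *SOS1* -0.85 and *RPS6KA1* -0.79 leading), 15 of 31 beside 43.2% of all genes. The list of p53 and proliferation genes moved as in A549, 3 higher (*GDF15* 3.97, *CDKN1A* 1.72, *MDM2* 1.28) and 5 lower (*MKI67* -1.25, *CDK1* -0.76 and *MCM2* -0.54 leading). Of 5 epithelial markers tested 4 fell, with a median log2 fold change of -0.82, and the summed level of the list was 1374 to 1608 TPM in the double knockdown and 1910 to 1976 in the controls. Of 3 mesenchymal markers 1 fell, at 1135 to 1277 TPM summed beside 1595 to 1625. The part of these lists in the result was not tested.

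In LN229, the *TRA2A*-independent glioma line, TRA2A KO called 2 genes, against a background of 3.68%. *ETV4* was at 47.7, 38.7 and 40.1 TPM in the Luc controls and 30.3, 29.5 and 27.3 in TRA2A KO, a log2 fold change of -0.51 ± 0.08 (adjusted p = 0.0104). *DUSP5* was at 11.7, 14.7 and 14.2 TPM and rose to 17.3, 19.4 and 18.1, 0.45 ± 0.11 on the log2 scale (adjusted p = 0.0365). Neither overlapped. *SPRY4* (-0.92 ± 0.28, adjusted p = 0.0866), *DUSP6* (-0.65 ± 0.18, adjusted p = 0.0676) and *PHLDA1* (-0.33 ± 0.10, adjusted p = 0.0749) were lower in all 3 knockout libraries and were not called, where 24.8% of all genes did not overlap. *SPRY4* was at 133, 55.6 and 59.0 TPM in the controls, with replicate 1 the high library, and 45.9, 38.2 and 35.5 in TRA2A KO. Without that replicate the log2 fold changes were -0.43 for *ETV4* (adjusted p = 0.0318), 0.35 for *DUSP5* (adjusted p = 0.129), -0.52 for *SPRY4* (adjusted p = 0.242), -0.45 for *DUSP6* (adjusted p = 0.228) and -0.22 for *PHLDA1* (adjusted p = 0.243), so 1 gene was called against a background of 1.07%. *DUSP5* was also lost without any 1 of the TRA2A KO libraries (adjusted p = 0.0542 to 0.145), and *ETV4* without TRA2A KO replicate 3 (-0.47, adjusted p = 0.063).

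TRA2B KO in LN229 called none of the genes by limma (background 0.568% called), and this count rested on 1 control library. At an unadjusted p under 0.05, a looser threshold for which that background does not hold, there were 4. *SPRY4* was at 132, 153 and 155 TPM in TRA2B KO, beside the controls of 133, 55.6 and 59.0, and *DUSP5* at 10.1, 9.38 and 10.3 TPM, below all controls. Groups did not overlap for 23.6% of all genes in this comparison. Without Luc Control KO replicate 1, 5 of the 10 genes were called, against a background of 20.6%. *SPRY4* (1.31, adjusted p = 0.00265), *ETV4* (0.37, adjusted p = 0.00963) and *DUSP4* (0.21, adjusted p = 0.0163) were then higher, and *DUSP5* (-0.58, adjusted p = 0.00486) and *SPRY2* (-0.29, adjusted p = 0.0102) lower. With all controls these log2 fold changes were 0.90, 0.28, 0.12, -0.48 and -0.22. Leaving out Luc Control KO replicate 1 removed the highest *SPRY4* control, so these calls depend on that choice.

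In LN319, the *TRA2A*-dependent glioma line, TRA2A KO called 4 genes, 2 in each direction, against a background of 14.3%. *SPRY2* was at 108, 109 and 123 TPM in the Luc controls and 173, 159 and 166 in TRA2A KO, a log2 fold change of 0.59 ± 0.06 (adjusted p = 0.00017). *DUSP6* was at 47.7, 47.2 and 43.5 TPM and fell to 32.7, 31.3 and 27.7, -0.55 ± 0.11 on the log2 scale (adjusted p = 0.00477). *DUSP4* fell from 77.6, 76.7 and 63.7 TPM to 60.4, 57.3 and 56.0 (-0.28 ± 0.07, adjusted p = 0.015), and *PHLDA1* rose from 54.3, 54.1 and 56.3 TPM to 67.4, 65.0 and 60.8 (0.27 ± 0.05, adjusted p = 0.00425). None of the 4 overlapped. The *DUSP4* call was lost without Luc Control KO replicate 1 (adjusted p = 0.0637) or 2 (0.0575) or TRA2A KO replicate 2 (0.0503). *SPRY2*, an inhibitor of the pathway, rose here while *DUSP4* and *DUSP6*, which inhibit it at a later step, fell. In all, 9 of the 10 genes had groups that did not overlap, 6 higher and 3 lower, where 32.2% of all genes did not. *ETV4* was at 46.6, 50.6 and 57.1 TPM and 37.5, 39.6 and 37.5 (-0.39 ± 0.15), not called at an adjusted p of 0.104 but called in TPM as deposited (0.0447), where 33.9% of calls among all genes were higher. Of the other ERK output genes 5 rose, led by *CCND1* (cyclin D1, 1.62), *FOSL1* (1.04) and *IER3* (0.80), and *EGR1* (-0.86) and the receptor *EPHA4* (-0.50) fell.

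TRA2B KO in LN319 called 6 genes, 5 lower and 1 higher, where 42.6% of all genes were called and 24% fell. All 3 phosphatases were lower. *DUSP5* went from 15.8, 16.6 and 16.6 TPM to 11.1, 11.9 and 11.7, -0.60 ± 0.07 on the log2 scale (adjusted p = 7.3e-05). *DUSP4* went to 53.5, 52.8 and 57.5 TPM (-0.51 ± 0.07, adjusted p = 0.000122) and *DUSP6* to 39.1, 40.4 and 39.9 TPM (-0.32 ± 0.11, adjusted p = 0.0288). *PHLDA1* went to 45.6, 49.7 and 48.7 TPM (-0.30 ± 0.05, adjusted p = 0.000502), and *SPRY2* to 105, 106 and 98.6 TPM (-0.24 ± 0.06, adjusted p = 0.00912). Each was below every control, in a comparison where 55.3% of all genes did not overlap, and the *DUSP6* call was lost without any of 5 of the 6 libraries (adjusted p up to 0.0889). *SPRY4* alone of the called genes rose, from 14.2, 18.4 and 15.4 TPM to 23, 25.3 and 23.1 (0.47 ± 0.10, adjusted p = 0.00312). *ETV4* stood above its controls at 71.5, 68.3 and 76.3 TPM (0.38 ± 0.15, adjusted p = 0.0534). TPM as deposited, in which the median of all genes moved by 0.124 and 56.4% of calls were higher, gave 3 lower and 2 higher: *DUSP6* (adjusted p = 0.0969) and *SPRY2* (0.119) were no longer called and *ETV4* was (0.0088). Mitochondrial transcripts took 18.3% to 20.6% of TPM in TRA2B KO and 12.1% to 12.8% in the controls. Of 5 epithelial markers tested 4 fell, and the list summed to 291 to 306 TPM in TRA2B KO and 357 to 366 in the controls. Of 3 mesenchymal markers 2 fell, at 3601 to 3815 TPM summed beside 4893 to 4982, and of 8 p53 and proliferation genes 1 rose (*MDM2*, 0.27) and 5 fell. The part of these measures in the result was not tested. Of the other ERK output genes 1 rose (*MYC*, 0.19) and 5 fell (*FOSL1* -0.66, *HBEGF* -0.43 and *EPHA2* -0.40 leading), and in the cascade 4 of 31 rose and 13 fell, with *MET* at -0.73 and *ERBB3* at 0.80 at the ends.

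**Figure D4:**
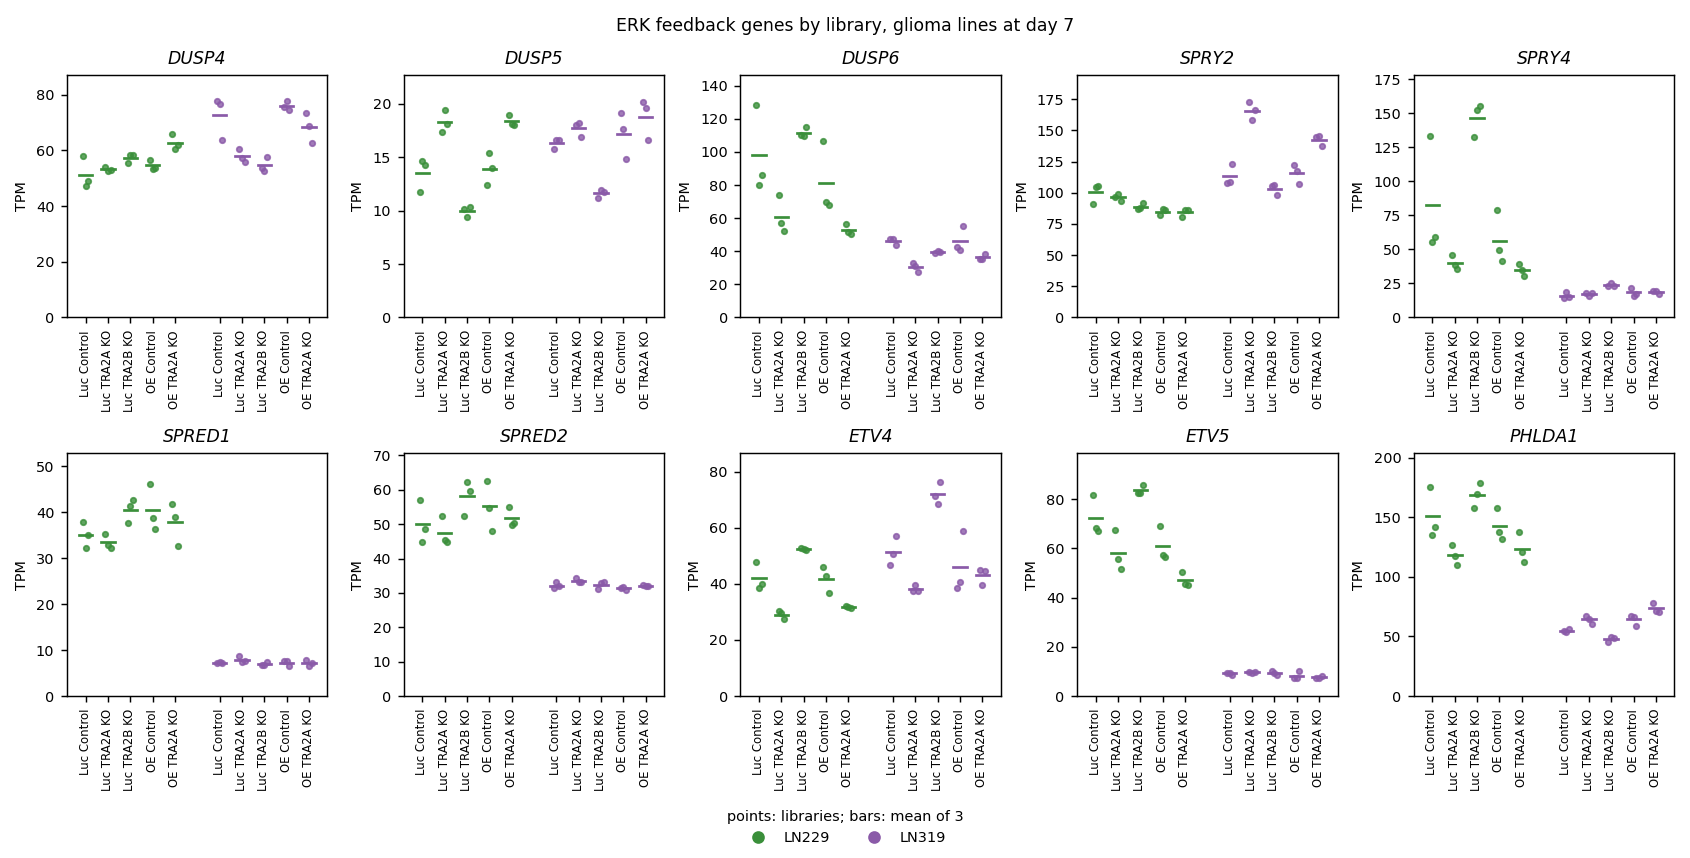
TPM of the 10 genes by library in LN229 and LN319, 1 panel per gene, with a point per library, a bar at the mean of 3 and the Luc control, TRA2A KO, TRA2B KO and TRA2B-OE (OE) groups along the axis. In LN229 the Luc and TRA2B-OE controls each hold 1 library with high *DUSP6* and *SPRY4* (133 and 78.6 TPM of *SPRY4*), and in LN319 *SPRY2* is highest in TRA2A KO.

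The paralog knockouts of a glioma line both used the Luc controls, so they were also compared with each other directly, a comparison added after these values had been seen. The fold change does not involve LN229 Luc Control KO replicate 1, although that library still entered the shared estimate of the spread. In LN229, 6 of the 10 genes differed, against a background of 34.1% of all genes. *SPRY4* was 3.53-fold higher in TRA2B KO than in TRA2A KO (log2 difference 1.82 ± 0.28, adjusted p = 0.000918), *DUSP6* 1.77-fold (0.83 ± 0.18, 0.00519) and *ETV4* 1.73-fold (0.79 ± 0.08, 0.000228). *ETV5* (0.47) and *PHLDA1* (0.46) were also higher, and *DUSP5* alone of the called genes was lower (-0.93 ± 0.11, 0.000254). These 6 did not overlap between the knockouts, as 52.6% of all genes did not. Each kept its call under each alternative tried other than a minimum fold.

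In LN319, 8 of the 10 genes differed between the knockouts, 6 lower and 2 higher in TRA2B KO, against a background of 47.2%. *SPRY2* (-0.83 ± 0.06, adjusted p = 1.73e-06), *DUSP5* (-0.75 ± 0.07, adjusted p = 6.71e-06) and *PHLDA1* (-0.57 ± 0.05, adjusted p = 3.96e-06) were lower in TRA2B KO, with *SPRED1* (-0.32), *DUSP4* (-0.23) and *SPRED2* (-0.20) at smaller differences. *ETV4* (0.77 ± 0.15, adjusted p = 0.000903) and *SPRY4* (0.31 ± 0.10, adjusted p = 0.0287) were higher. The *SPRY4* call was lost without TRA2A KO replicate 1 (0.0573) or 2 (0.114) or TRA2B KO replicate 1 (0.0542) or 2 (0.0946), and that of *DUSP4* without TRA2B KO replicate 2 (0.055), all adjusted p. TPM as deposited, with 60.6% of calls higher, gave 3 lower and 3 higher, since *DUSP4*, *SPRED1* and *SPRED2* were not called and *DUSP6* was, at 0.38 (adjusted p = 0.00574). Higher *SPRY4* and *ETV4* and lower *DUSP5* in TRA2B KO were thus called in both glioma lines, while *PHLDA1* was called higher in LN229 and lower in LN319. The paralog levels were not alike in the lines. Against the Luc controls *TRA2A* was called higher in LN229 TRA2B KO (155%) and lower in LN319 TRA2B KO (84.6%). Its part in the result was not tested. Of the other ERK output genes, 8 in LN229 and 7 in LN319 were called lower in TRA2B KO (backgrounds 18% and 26.1% lower) and none was called higher, with *FOSL1* at -1.55 and -1.7 and *CCND1* at -0.93 and -1.90. *EGR1* was higher in every TRA2B KO library in both lines without being called (0.80 and 0.39), as were *IER3* in LN229 (0.25) and *EPHA4* in LN319 (0.25). Groups did not overlap for 52.6% of all genes in LN229 and 59.7% in LN319. That was read in TPM as deposited, where the median of all genes moved by 0.162 in LN319.

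**Figure D5:**
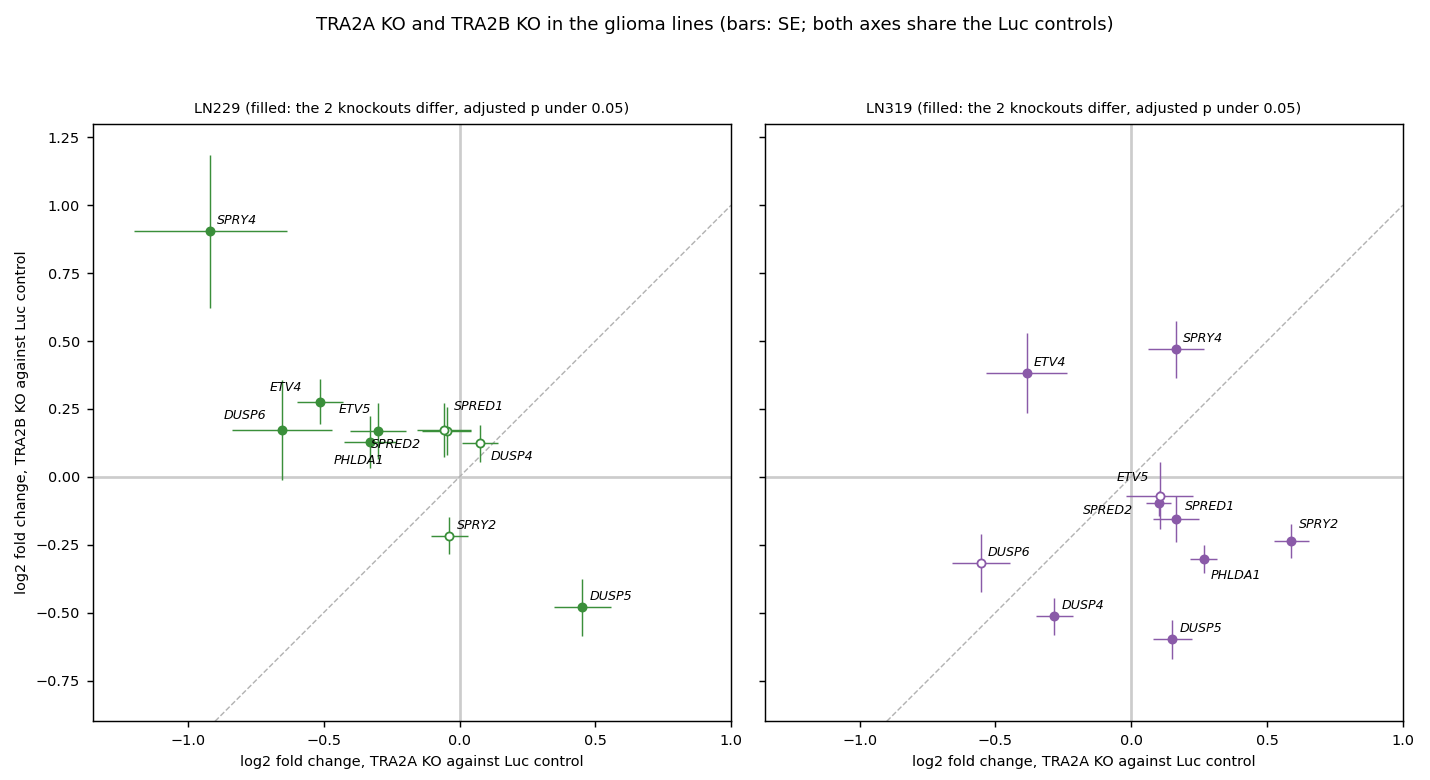
Log2 fold change against the Luc controls in TRA2A KO (horizontal) and TRA2B KO (vertical) for the 10 genes in LN229 and LN319, with SE bars, filled points where the knockouts differed at an adjusted p under 0.05, and a dashed line of equal values. *SPRY4* and *ETV4* lie above the line and *DUSP5* below it in both lines, and *PHLDA1* lies above it in LN229 and below it in LN319.

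Overexpression of *TRA2B*, which raised its mRNA to 374% of the Luc control in LN229 and 873% in LN319, called none of the 10 genes by limma in either line. The backgrounds of all genes called were 1.03% and 4.31%. At an unadjusted p under 0.05, a looser threshold for which those backgrounds do not hold, there were 2 in each line. *SPRY2* in LN229 was lower in every TRA2B-OE control (82.1, 86.9 and 86.0 TPM) than in every Luc control (91.2, 105 and 105 TPM), with a log2 fold change of -0.28 ± 0.07 (adjusted p = 0.0714). Groups did not overlap for 16.9% of all genes there. *SPRY2* was called at -0.35 (adjusted p = 0.0269) without Luc Control KO replicate 1, the Luc control with the lowest *SPRY2*, so this call depends on that choice. In LN319, 3 genes were called lower once TRA2B-OE Control KO replicate 3 was left out (background 8.95%). These were *ETV4* (-0.48, adjusted p = 0.0184), *ETV5* (-0.41, adjusted p = 0.0279) and *DUSP6* (-0.26, adjusted p = 0.04). That library held 58.8 TPM of *ETV4*, beside 38.5 and 40.8 in the other TRA2B-OE controls. Its median correlation to the other LN319 libraries was 0.948, beside 0.946 and 0.949 for those controls. Leaving it out removed the highest *ETV4* value of the group, so these calls depend on that choice. Their relation to TRA2B-OE was not tested.

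*TRA2A* KO in TRA2B-OE cells called 2 genes in each glioma line. In LN229 (background 6.06%, 3.63% lower) *ETV4* was at 46.0, 42.7 and 36.6 TPM in the TRA2B-OE controls and 32.2, 31.7 and 31.5 in the knockout (-0.41 ± 0.08, adjusted p = 0.0175). *ETV5* was at 68.9, 57.1 and 56.3 TPM and fell to 50.4, 45.6 and 45.3 (-0.39 ± 0.10, adjusted p = 0.0441). Both were lower in all 3 libraries, where 27.6% of all genes did not overlap. Neither was called without TRA2B-OE Control KO replicate 1, at -0.35 (adjusted p = 0.0618) and -0.31 (adjusted p = 0.147). *ETV5* was lost without any 1 of the 6 libraries, and *ETV4* also without TRA2B-OE Control KO replicate 2 (0.0603) or TRA2A KO replicate 2 (0.0639) or 3 (0.054). In LN319 (background 2.77%, 1.48% higher) *SPRY2* was at 122, 117 and 107 TPM in the controls and 145, 145 and 137 in the knockout (0.36 ± 0.06, adjusted p = 0.0153). *PHLDA1* was at 67.1, 66.5 and 59.2 TPM and rose to 78.5, 71.8 and 70.9 (0.26 ± 0.05, adjusted p = 0.0232), and neither was called without TRA2B-OE Control KO replicate 3 (adjusted p = 0.0652 and 0.0831). *SPRY2* was also lost without TRA2A KO replicate 1 (0.0612) or 2 (0.0522), and *PHLDA1* without TRA2B-OE Control KO replicate 1 (0.0537) or TRA2A KO replicate 1 (0.0999).

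Whether TRA2B-OE altered the response to *TRA2A* KO was tested as an interaction, and none of the 10 genes was called by limma in LN229 or LN319, with 0 and 1 at an unadjusted p under 0.05. Few genes were called at all, 0% and 0.0207% of those tested. In LN319 the *SPRY2* response was 0.59 in Luc cells and 0.36 in TRA2B-OE cells, a difference of -0.23 ± 0.09 (adjusted p = 0.538), the *DUSP6* response -0.55 and -0.27 (difference 0.28 ± 0.15, adjusted p = 0.702), and the *ETV4* response -0.39 and -0.01 (difference 0.37 ± 0.21, adjusted p = 0.717). In LN229 the *ETV4* response was -0.51 and -0.41 (difference 0.11 ± 0.12, adjusted p = 1). A test that misses the threshold does not show that the responses were alike.

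The 10 genes moved together to different degrees in the 4 lines. These correlations are across the libraries of a line, which share conditions and scaling, and are descriptions. Over the 12 A549 libraries the 45 pairs of genes had a median Pearson r of 0.50, and 40 pairs were positive, with *DUSP5* and *ETV5* closest (r = 0.95). The median was 0.29 in LN229, with 27 positive pairs, -0.01 in LN319 and -0.04 in NCI-H23, with 22 positive pairs each. *DUSP5* and *ETV4* ran most strongly against each other in both glioma lines (r = -0.95 in LN229 and -0.86 in LN319). Over all 54 libraries, centred on the line, and 13381 genes, the pattern of *DUSP5* was most like that of *GADD45A* (r = 0.93), *SNAPC1* (0.91) and *AEN* (0.91), and that of *SPRY4* most like *FOS* (0.89), *KLHL29* (0.83) and *MYLIP* (0.82). *DUSP6* was closest to *NAB2*, *MCL1* and *SOCS3* (0.82 each) and *PHLDA1* to *MCL1* (0.88), *NFKB1* (0.81) and *UBALD2* (0.78). *ETV5* was closest to *NBR1* (0.89), *SPRED1* to *RLF* (0.89), *DUSP4* to *ZBTB4* (0.87), *SPRY2* to *ID1* (0.82) and *ETV4* to *RAI1* (0.74). *SPRED2* had the weakest neighbours, with *PHLDA1*, itself 1 of the 10 genes, at 0.63.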

How the data were processed

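The authors prepared poly(A)-selected, directional libraries and quantified them with kallisto 0.48.0 (Gencode v34, GRCh38); STAR 2.7.3 is also named in the submitters' processing notes. They deposited TPM per gene, 1 table per line, with library sums of 928908 to 964610, no depth and no scaling between libraries. All 54 columns matched a sample, and 0 libraries were identical. In R 4.3.3, a gene entered a line's fit if 4 or more libraries reached 1 TPM (A549 16405 genes, NCI-H23 16293, LN229 18490, LN319 19303). Values were scaled by a trimmed mean of log ratios (trims of 30% and 5%), taken as log2(TPM + 0.1) and fitted with limma 3.58.1 with a mean-variance trend, all groups of a line in 1 model. Tests were two-sided with Benjamini-Hochberg adjustment. The code was tested on simulated data. A permutation test of 3 against 3 could not reach an exact p under 0.1 and was not used. Overlap of groups was read from TPM as deposited. All 10 genes are named with values, with up to 3 genes per direction of each list, those called with the largest change. The genes, lists and motifs were chosen with earlier results of these data known. Alternatives were other pseudocounts, filters, scalings, groups in the fit, a replicate block and leaving out each library. Motif positions and sequences come from RefSeq (GRCh38.p14), gene positions from Gencode v44 (GRCh38).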

Additional observations from a re-analysis of the deposited data

Results flagged for a closer look

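In A549 the double knockdown differed from the sum of the single knockdowns for 6 genes by the interaction test, with log2 differences of 1.48 for *DUSP5*, 1.35 for *PHLDA1*, 0.87 for *ETV5*, 0.80 for *DUSP4*, 0.71 for *SPRED2* and 0.51 for *ETV4*. In NCI-H23 it did for *DUSP4* (-0.81) and *PHLDA1* (-0.41), below the sum. The interactions of *DUSP4* and *PHLDA1* were thus above 0 in A549 and below 0 in NCI-H23, a difference between lines that was not tested. *TRA2A* and *TRA2B* themselves were called above the sum in NCI-H23 (1.00 and 0.63) and not called in A549 (-0.10 and 0.17). The difference therefore cannot be told apart from the strength of the double knockdown.

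Libraries of a pair of lines separated from their controls in opposite directions for *PHLDA1* in TRA2B KD (-0.46 in A549, 0.12 in NCI-H23), for *PHLDA1* in TRA2A KO (0.27 in LN319 and -0.33 in LN229, the latter -0.22 once Luc Control KO replicate 1 was left out) and for *DUSP4* in TRA2A KO of TRA2B-OE cells (0.18 in LN229, -0.10 in LN319). These 3 differences were not tested, and of the 6 fold changes only that of *PHLDA1* in LN319 TRA2A KO was called. Separation was read in TPM as deposited, where 20% (A549 TRA2B KD) to 32.2% (LN319 TRA2A KO) of all genes did not overlap in these comparisons. In that TPM the median of all genes lay at 0.12 on the log2 scale in NCI-H23 TRA2B KD.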

How the results depend on the processing

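The 51 called values of single genes, 37 of them in the planned comparisons, kept their sign under every alternative tried. Of 762 pairs of a called value and an alternative (the minimum fold aside), 647 stayed called and 115 did not, and 29 values stayed called under each. The counts of the 10 genes moved as follows, and where no value or construction shows it the cause was not tested. With an absolute log2 fold change above 1 also required, the counts were 0 in A549 TRA2B KD, NCI-H23 TRA2A KD, NCI-H23 non-additivity, LN229 TRA2A KO in both backgrounds, LN319 TRA2A KO in both backgrounds, LN319 TRA2B KO and LN319 TRA2B KO against TRA2A KO, 1 in NCI-H23 TRA2A/B DKD and LN229 TRA2B KO against TRA2A KO, and 2 in A549 non-additivity. Without a filter they were 3 in A549 non-additivity, 0 in NCI-H23 TRA2A KD, and 1 in LN229 TRA2A KO in both backgrounds. A minimum of 5 TPM gave 1 in LN229 TRA2B KO. TPM as deposited gave 0 in A549 TRA2B KD and NCI-H23 TRA2A KD and 1 in NCI-H23 TRA2B KD and LN319 TRA2A KO in TRA2B-OE, and quantile normalization 1 in LN229 TRA2B KO, TRA2B-OE and TRA2A KO in TRA2B-OE. A fit limited to the compared groups, and so to fewer samples, gave 0 in A549 TRA2B KD, NCI-H23 TRA2A KD, LN229 TRA2A KO in both backgrounds and LN319 TRA2A KO in TRA2B-OE.

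Leaving out 1 library at a time gave 0 to 2 in A549 TRA2B KD, 3 to 9 in A549 non-additivity, 0 to 0 in NCI-H23 TRA2A KD, 0 to 2 in LN229 TRA2A KO, 0 to 5 in LN229 TRA2B KO, 0 to 1 in LN229 TRA2B-OE and in its TRA2A KO, 0 to 3 in LN319 TRA2B-OE and 0 to 2 in its TRA2A KO. The replicate block gave 0 in NCI-H23 TRA2A KD, 6 in LN229 TRA2A KO, 3 in LN229 TRA2B KO, 2 in LN229 TRA2B-OE and 4 in LN229 TRA2A KO in TRA2B-OE. The labels give replicates of equal number only the number in common. In no comparison did every pair of deviations correlate above 0.1, which does not exclude a shared block. In LN229 replicates 1, 2 and 3 had r of 0.160, 0.022 and 0.041 in TRA2A KO. In LN229 TRA2B-OE r was 0.212, 0.002 and 0.059, and in LN229 TRA2B KO -0.013, -0.085 and -0.017. In A549 5 of 12 libraries correlated best with their own number, in NCI-H23 7 of 12, in LN229 8 of 15 and in LN319 5 of 15. Whether replicates were paired was not settled. TPM keeps no depth, so its share in the spread is unknown.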
